A study of Homo sapiens with 3 samples.

Results

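The metallothionein genes were examined in LvM3b, a human colon adenocarcinoma line, together with 2 further zinc-response genes, SLC30A1 and MTF1. Members were chosen by name, as every probe whose target was MT1A, MT1E, MT1F, MT1G, MT1H, MT1M, MT1X, MT2A, SLC30A1 or MTF1. Earlier results of these data were known when the list was made, so the choice was not blind to them. The 10 genes had 13 of the 48803 probes on the array, and the 8 metallothioneins had 10 of them. Total RNA was measured on Illumina bead arrays in cells overexpressing miR-483-5p (named miR-483 in the sample label), in cells overexpressing miR-551a and in control cells. Every group was 1 sample on 1 array. All were grown in the same serum medium, and the labels name no added metal. How the microRNAs were overexpressed, and what the control cells carried, is not given in the sources used here.

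Metallothioneins are small, cysteine-rich proteins that bind zinc and copper and take up cadmium. Their genes lie side by side on chromosome 16 and are known as sensitive reporters of free zinc in the cell. Zinc activates the transcription factor MTF1, which binds metal response elements in metallothionein promoters and in SLC30A1, the gene of the main zinc exporter of the plasma membrane. Glucocorticoids also induce several of them. In colon epithelium they buffer zinc, and their loss has been described in colorectal tumours.

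The sequence of miR-551a is shown first because this microRNA was overexpressed, with its seed (bases 2 to 8) in capitals. That of miR-483-5p, also overexpressed, was not in the RefSeq sequences used. The miR-551a sequence is that of RefSeq on GRCh38.p14, chr1:3560710-3560730, minus strand.
miR-551a: gCGACCCAcucuugguuucca
The promoters of MT2A, MT1H, MT1X and SLC30A1 are shown because metal response elements are the feature through which these genes answer to zinc. That of MT4, which is not a member, is printed for comparison, and whether MT4 answers to zinc was not tested. Of the 10 members, 5 had a promoter in the RefSeq table of GRCh38.p14: MT2A, MT1H, MT1X, SLC30A1 and MTF1. The 250 bases before the gene start are printed, 5′ to 3′ on the gene's strand, and capitals mark the core letters TGCACNC or TGCGCNC on either strand. They cover chr16:56608334-56608583 (plus strand) for MT2A, chr16:56669564-56669813 (plus) for MT1H, chr16:56682220-56682469 (plus) for MT1X, chr16:56564823-56565072 (plus) for MT4 and chr1:211579162-211579411 (minus) for SLC30A1.
MT2A: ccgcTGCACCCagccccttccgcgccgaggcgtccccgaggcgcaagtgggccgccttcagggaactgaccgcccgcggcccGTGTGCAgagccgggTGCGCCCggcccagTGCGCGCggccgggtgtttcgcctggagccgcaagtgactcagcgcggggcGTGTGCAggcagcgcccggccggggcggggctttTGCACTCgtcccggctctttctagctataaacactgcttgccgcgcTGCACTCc
MT1H: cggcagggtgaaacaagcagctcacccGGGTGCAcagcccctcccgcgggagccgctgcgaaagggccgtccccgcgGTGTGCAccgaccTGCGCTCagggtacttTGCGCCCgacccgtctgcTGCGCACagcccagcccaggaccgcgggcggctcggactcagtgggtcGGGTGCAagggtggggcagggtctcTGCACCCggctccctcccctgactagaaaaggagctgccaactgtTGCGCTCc
MT1X: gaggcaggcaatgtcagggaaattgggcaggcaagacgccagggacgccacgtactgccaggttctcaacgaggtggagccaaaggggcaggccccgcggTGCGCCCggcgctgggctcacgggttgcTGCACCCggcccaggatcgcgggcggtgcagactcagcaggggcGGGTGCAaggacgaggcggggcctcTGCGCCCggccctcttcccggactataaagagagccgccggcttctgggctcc
MT4: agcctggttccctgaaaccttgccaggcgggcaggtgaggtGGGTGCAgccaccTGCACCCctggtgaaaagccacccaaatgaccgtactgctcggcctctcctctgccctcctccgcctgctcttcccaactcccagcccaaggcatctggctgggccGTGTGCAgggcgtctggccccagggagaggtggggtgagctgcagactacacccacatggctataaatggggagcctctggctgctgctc
SLC30A1: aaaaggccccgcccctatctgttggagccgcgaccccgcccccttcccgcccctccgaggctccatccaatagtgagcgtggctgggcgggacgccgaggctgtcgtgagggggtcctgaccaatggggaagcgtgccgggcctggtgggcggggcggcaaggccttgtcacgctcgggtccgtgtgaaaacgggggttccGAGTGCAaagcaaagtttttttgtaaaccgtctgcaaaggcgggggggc

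The MT1H window held 8 cores, the MT2A window 7 and the MT1X window 4. At least 4 cores were found in 0.37% of the 35116 promoter windows of this length, and at least 1 in 24.8%. The windows of MT1B and MT4 each held 3 cores, a number reached by 1.58% of windows. That of SLC30A1 held 1 core and that of MTF1 held 0. A core is a match of letters only and was not tested for binding. In the map of core positions, MT1H, MT1X and MT1B share a core at bases -53 to -47 before the start.

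**Figure D1:**
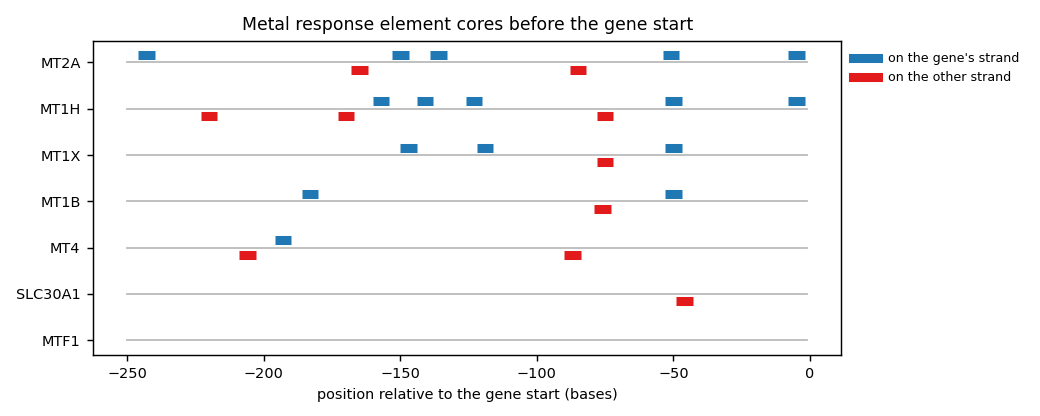
Position of each metal response element core (TGCACNC or TGCGCNC) in the 250 bases before the gene start, in bases, for 7 promoters; blue blocks lie on the strand of the gene and red blocks on the other. MT1H has 8 cores and MT2A has 7, SLC30A1 has 1 and MTF1 has 0.

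The median intensity of all probes was 88.0 in the miR-483-5p, 87.7 in the miR-551a and 84.9 in the control array, and 13291, 13925 and 13814 probes were detected in them (detection score above 0.99). Of 12 intestinal epithelial markers, 11 had a detected probe in each array, with KRT20 not detected. Of 6 hepatocyte markers 1 was detected in each array, of 5 leukocyte markers 1, of 4 endothelial markers 0, and of 5 fibroblast markers 2 with miR-483-5p and 1 in each of the others. ALB, PTPRC, COL1A1 and PECAM1 were not detected. The hepatocyte marker SERPINA1 and the leukocyte marker CD68 were detected in each array. Of the fibroblast markers, LUM was detected in both overexpressing arrays only, and COL3A1 with miR-483-5p and in control. Summed intensity of the epithelial markers was 44346 with miR-483-5p and 47120 with miR-551a, against 42253 in control. Single epithelial markers differed in opposite directions. GPA33, an intestinal surface protein, was 2.29-fold lower with miR-483-5p and 2.57-fold lower with miR-551a, and CDX2, an intestinal transcription factor, 1.33-fold and 1.86-fold lower. The keratins KRT8 (1.69-fold and 2.81-fold) and KRT19 (1.28-fold and 1.62-fold) were higher. GPA33 and KRT8 differed by more than any metallothionein probe detected in all arrays, in both comparisons with control. The part of these differences in the values below was not tested. With 1 array a group there is no replicate error and no test, and every difference below is between single samples. Both comparisons with control use the same control array, so they are not separate observations.

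After normalization the metallothionein probes lay below control in both overexpressing samples, though some only barely with miR-483-5p. Of the 9 probes detected in all 3 arrays, 9 were lower with miR-483-5p, where 49.5% of the 12484 probes detected in both arrays were, and 9 with miR-551a, where 50.8% of 12730 were. Their median difference was -0.39 (log2 of normalized intensity) with miR-483-5p and -0.47 with miR-551a. With miR-483-5p, MT2A (-0.0055), the brighter MT1E probe (-0.04) and the dimmer MT1H probe (-0.06) were almost level with control. The count of 9 lower probes there is thus not a count of 9 clear decreases. The tenth probe, the dimmer one of MT1E, was detected in control only, so its lower sign follows from the filter and is not read. With it the medians were -0.42 and -0.47, against -0.007 and -0.0043 over the 13759 and 14039 probes detected in at least 1 array compared, of which 51.0% and 50.5% were lower. None was higher, where 48.9% and 49.4% of all probes were. The differences were small: with miR-483-5p 1 of 10 probes was at least 1.5-fold lower, against 4.43% of all probes, and with miR-551a 3 of 10, against 5.8%. No metallothionein probe of the 8 genes was at least 2-fold lower in either sample, a size reached by 0.69% and 0.954% of all probes, and none was 2-fold higher, as 0.574% and 0.983% were. A count of 1 in 10 past 1.5-fold is close to what all probes gave, so nothing is read from it.

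**Figure D2:**
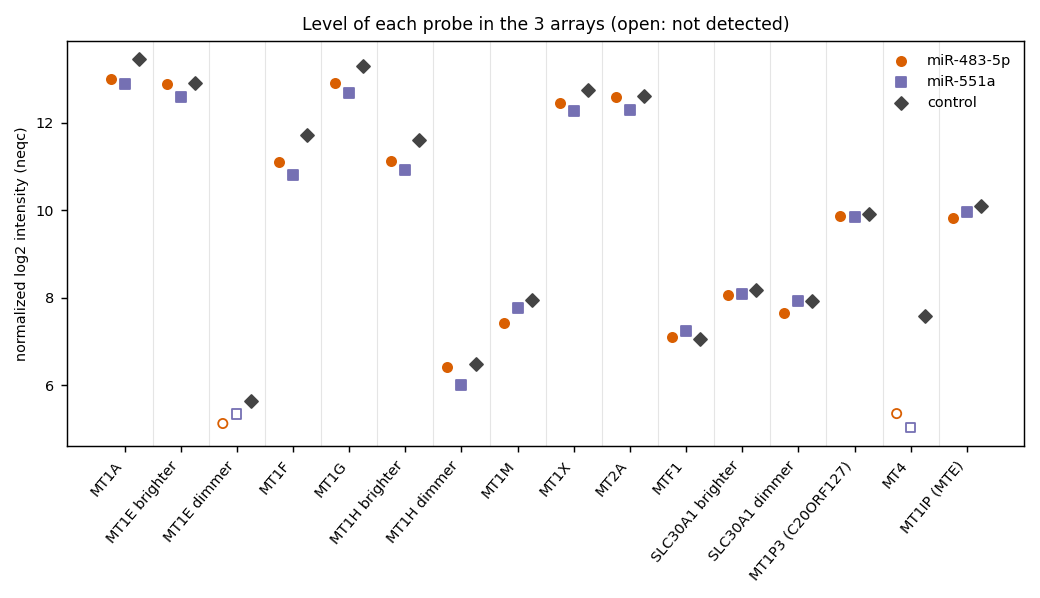
Normalized log2 intensity of each member probe, and of the detected probes of MT4, MT1IP and MT1P3, with miR-483-5p (circles), miR-551a (squares) and in control (diamonds); open symbols were not detected. The control array is the highest of the 3 at the 9 metallothionein probes detected in all arrays, and the lowest at MTF1.

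MT1F, a metallothionein of the MT1 group, showed the largest difference among the 10 probes. It read 2240 in miR-483-5p cells and 1939 in miR-551a cells, against 3226 in control cells (non-normalized intensity). After normalization MT1F was 1.53-fold lower with miR-483-5p and 1.88-fold lower with miR-551a. Of the 500 probes nearest in brightness, 1.8% and 0.8% lay further down. Both overexpressing samples were thus below control, and miR-551a cells were the lowest.

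MT1A, MT1G, the brighter MT1H probe and MT1X were ordered the same way, with the miR-551a value lowest and the control value highest. MT1A, one of the classic zinc- and cadmium-inducible forms, read 8036 in miR-483-5p cells and 7779 in miR-551a cells, against 10931 in control cells. After normalization MT1A was 1.37-fold and 1.47-fold lower. MT1G, a form that gut epithelium expresses, read 7731 and 6779 in miR-483-5p and miR-551a cells, against 10082 in control cells (1.31-fold and 1.54-fold lower). These bright probes lay in a range where few probes differed as much: 2.6% and 1.6% of the 500 probes of like brightness were further down than MT1A, and 5.0% and 1.4% further down than MT1G.

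The brighter MT1H probe read 2277 in miR-483-5p cells and 2109 in miR-551a cells, against 3002 in control cells, 1.38-fold and 1.59-fold lower. The dimmer MT1H probe was near background in all arrays, with 148.3, 129.3 and 149.5 in miR-483-5p, miR-551a and control cells. It differed by -0.06 with miR-483-5p and by -0.47 with miR-551a, and the second value was -0.26 without background correction. The 2 probes of MT1H therefore differ for miR-483-5p. MT1X, which is expressed in many tissues, read 5533 in miR-483-5p cells and 5168 in miR-551a cells, against 6714 in control cells, 1.23-fold and 1.38-fold lower.

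MT2A and MT1E were lower with miR-551a and almost level with control in miR-483-5p cells. MT2A, the single MT2 gene and in most tissues a main contributor to metallothionein protein, read 6151 in miR-483-5p cells and 5212 in miR-551a cells, against 6142 in control cells. Its difference was -0.0055 with miR-483-5p and -0.31 with miR-551a, 1.24-fold lower. The non-normalized MT2A value with miR-483-5p was slightly above control, so its sign there carries little. The brighter MT1E probe read 7590 and 6393 in miR-483-5p and miR-551a cells, against 7679 in control cells, a difference of -0.04 and -0.33. Among the 500 probes of like brightness 50.2% lay below MT2A and 43.4% below MT1E when miR-483-5p was set against control, so neither stood away from other bright probes there. With miR-551a the shares were 14.2% and 12.6%.

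The dimmer MT1E probe was detected in the control array only, at 98.6, 104.6 and 110.3 in miR-483-5p, miR-551a and control cells. Its measured difference with miR-483-5p was -0.50, or -0.21 without background correction, and no fold is given because no bound could be set. It passed the filter through control alone, so neither its sign nor its size is counted as part of the pattern.

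MT1M ran in another order. It read 233.5 in miR-483-5p cells and 288.3 in miR-551a cells, against 303.3 in control cells, so the miR-483-5p sample was the lowest. After normalization it was 1.46-fold lower with miR-483-5p and 1.15-fold lower with miR-551a, and 3.4% and 24.0% of the 500 probes of like brightness lay further down.

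**Figure D3:**
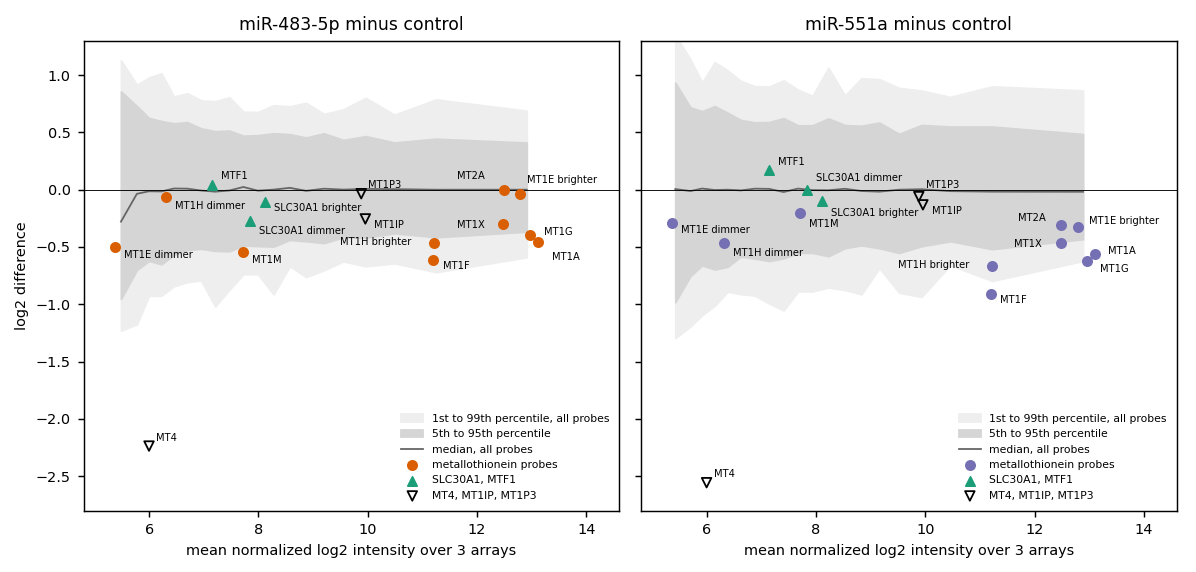
Log2 difference from control of each probe (vertical) against its mean normalized log2 intensity over the 3 arrays (horizontal), for miR-483-5p (left) and miR-551a (right). Grey bands are the percentile ranges of all probes tested at each brightness, as named in the legend. MT1F lies at -0.61 and -0.91, and MT2A at -0.0055 and -0.31. MT4, the lowest point drawn, was not detected in either overexpressing array.

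Set directly against each other, without control, the overexpressing arrays differed at the metallothioneins mostly in the direction of higher values with miR-483-5p. Of the 9 probes detected in either array, 8 were higher in miR-483-5p than in miR-551a cells, where 49.4% of 13749 probes were, with a median of 0.23 against -0.0026 over all probes. The other 1 was lower, as 50.4% of all probes were. MT1M was the exception, 1.27-fold lower with miR-483-5p (-0.35). MT2A (0.30), MT1F (0.30) and the brighter MT1E probe (0.29) differed alike, and of the 500 probes nearest each in brightness 96.2%, 95.4% and 95.8% lay below them. None of the 9 reached 1.5-fold in either direction, a size reached by 2.41% of all probes downward and 1.9% upward, and 2-fold was reached by 0.305% and 0.182%. This comparison follows from the same 3 arrays as the other 2.

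SLC30A1, the zinc exporter, and MTF1, the zinc-sensing activator of metallothionein genes, stayed within 1.5-fold at each of their 3 probes. The brighter SLC30A1 probe read 330.9 in miR-483-5p cells and 342.8 in miR-551a cells, against 346.6 in control cells, with differences of -0.11 and -0.10. The dimmer one read 264.5 and 317.3 in miR-483-5p and miR-551a cells, against 298.7 in control cells. It differed by -0.27 with miR-483-5p and by -0.0034 with miR-551a, and the second value was 0.08 under median centring.
MTF1 read 201.4 in miR-483-5p cells and 218.9 in miR-551a cells, against 193.4 in control cells. It differed by 0.04 and 0.17, so both overexpressing samples were above control. Of all probes tested, 35.9% and 18.5% lay below the brighter and the dimmer SLC30A1 probe with miR-483-5p, and 56.7% below MTF1, all well inside the spread of probes.

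Metallothionein genes outside the members were looked up from a list of 11 genes and pseudogenes, of which 9 had a probe and 3 were detected in any array. MT4, a metallothionein of stratified squamous epithelium, read 104.9 in miR-483-5p cells and 95.7 in miR-551a cells, against 250.6 in control cells. It was detected in control only, so it entered through the array where it is high. Taking the smallest bound over the background corrections and scalings tried, it was at least 2.19-fold lower with miR-483-5p and at least 2.29-fold lower with miR-551a. With the neqc background correction used elsewhere here the bounds were 3.58-fold and 3.97-fold, so the size depends on the correction. The values rest on 1 probe and 1 control array.
The transcribed pseudogene MT1IP (listed as MTE) read 973.9 in miR-483-5p cells and 1107 in miR-551a cells, against 1100 in control cells, a difference of -0.25 and -0.13. MT1P3, a pseudogene on chromosome 20 (listed as C20ORF127), differed by -0.04 and -0.06, and by 0.03 and 0.08 under median centring. MT1B, MT1L, MT1JP, MT1DP, MT3 and the MT1H-like gene MT1HL1 were not detected in any array. Metallothionein transcripts are close to one another in sequence, so a probe of 1 gene may also read RNA of another. How far the probes share targets was not tested.

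**Figure D4:**
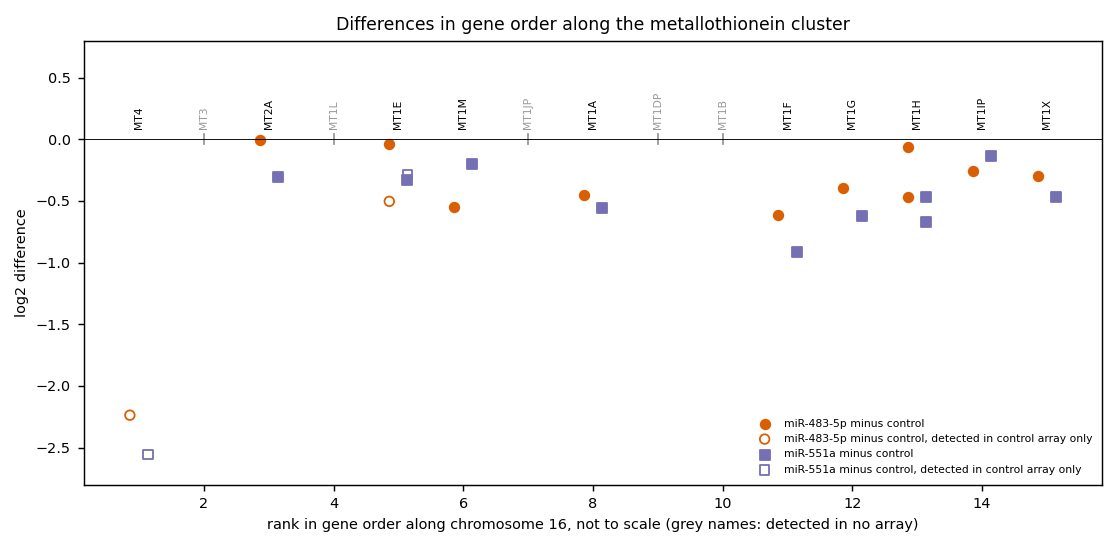
Log2 difference from control of each detected probe in the metallothionein cluster of chromosome 16, with genes in their order along the chromosome (not to scale), for miR-483-5p (circles) and miR-551a (squares). Open symbols were detected in the control array only. MT2A and the brighter MT1E probe, near the MT4 end, lie close to 0 with miR-483-5p, and MT1F has the lowest value among probes detected in all 3 arrays.

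The neighbours of the cluster did not show the same one-sided pattern. Of 14 neighbouring genes 9 were measured, each at its brightest detected probe. With miR-483-5p 5 were lower and 4 higher (median -0.0018), and with miR-551a 6 were lower and 3 higher (median -0.24). Over all probes, 51.0% and 50.5% were lower. NUP93, a nuclear pore subunit, was higher by 0.59 and 0.88 (log2), and BBS2, a cilium gene, was 1.12-fold lower with miR-483-5p and 1.53-fold lower with miR-551a. HERPUD1, an endoplasmic reticulum stress gene, was 1.61-fold lower with miR-483-5p at 1 probe and 1.25-fold at its brighter one. With miR-551a the same probes were 1.15-fold and 1.18-fold lower.

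Zinc transporters were read from 2 lists. Of 10 exporter genes of the SLC30 family and related genes 4 were measured, with 2 lower and 2 higher for miR-483-5p (median 0.02) and 3 lower and 1 higher for miR-551a (median -0.14). Of 14 importers of the SLC39 family 10 were measured, with 7 lower and 3 higher in each comparison (medians -0.14 and -0.10). Over all probes, 51.0% and 50.5% were lower. None of the measured transporters of these lists reached 1.5-fold in either comparison with control. SLC39A10, an importer of the plasma membrane, was nearest on the upper side, at 0.51 and 0.53. SLC30A6, an exporter into the Golgi, differed by 0.19 with miR-483-5p and by -0.46 with miR-551a.

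Copper, iron and stress genes were set beside the metallothioneins because these also respond to metals. Of 10 measured copper-handling genes 9 were lower and 1 higher in each comparison (medians -0.15 and -0.21), where 51.0% and 50.5% of all probes were lower. At least 1.5-fold lower were 0 for miR-483-5p and 1 for miR-551a, where 4.43% and 5.8% of all probes were. That gene was CCS, the copper chaperone of superoxide dismutase, at -0.58 and -0.62, but another of its probes differed by -0.05 and -0.02. The remaining CCS probe was not detected with miR-483-5p and differed by 0.01 with miR-551a. The copper importer SLC31A1 differed by -0.37 and -0.53.
Of 7 iron-handling genes 1 was at least 1.5-fold higher, against 4.03% and 6.09% of all probes. It was the ferritin heavy chain FTH1, which read 3667 in miR-483-5p cells and 4272 in miR-551a cells, against 2056 in control cells (1.71-fold and 1.89-fold higher). Of 8 metal stress genes 2 were at least 1.5-fold higher in each comparison and 0 lower (medians 0.19 and 0.30). HSPA1B, a heat shock chaperone that cadmium and excess zinc also induce, was 1.58-fold and 1.72-fold higher; it is nearly identical to HSPA1A, so its probe may read both. DNAJB1, its partner, was 1.41-fold and 1.67-fold higher, and the selenoprotein SELENOW 1.53-fold and 1.45-fold. The oxidative stress gene GCLM differed by -0.03 and 0.31.

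Glucocorticoid response genes were included because metallothioneins answer to that hormone as well. Of 6 measured, 2 were at least 1.5-fold lower and 1 higher with miR-483-5p, and 3 lower and 2 higher with miR-551a. Of all probes 4.43% were that much lower and 4.03% higher with miR-483-5p, and 5.8% lower and 6.09% higher with miR-551a. TSC22D3, which glucocorticoids induce in many cells, read 122.2 in miR-483-5p cells and 113.1 in miR-551a cells, against 205.7 in control cells at its brighter probe. It was 2.49-fold and 2.99-fold lower, or -0.78 and -0.90 (log2) without background correction in place of -1.31 and -1.58. Its other probe, detected in control only, was at least 1.63-fold and 1.71-fold lower by the smallest bound over those corrections, and 2.37-fold and 2.63-fold with neqc. KLF9, a transcription factor, was 1.70-fold and 2.37-fold lower, and DUSP1, a phosphatase of MAP kinases, 1.23-fold and 1.55-fold lower.
FKBP5, a co-chaperone of the glucocorticoid receptor, was 1.75-fold and 1.67-fold higher. The kinase SGK1 was 1.23-fold and 1.52-fold higher, with the second value 0.38 (log2) without background correction in place of 0.61. The list thus split, with members on both sides in both samples.

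**Figure D5:**
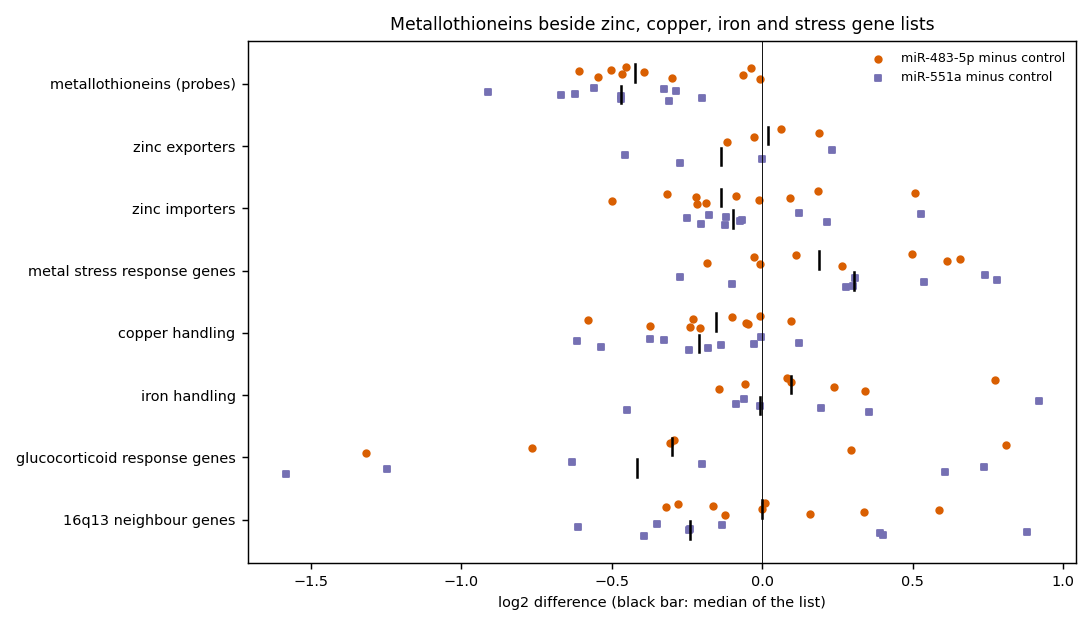
Log2 difference from control of each metallothionein probe and of each measured gene of 7 further lists, for miR-483-5p (circles) and miR-551a (squares); black bars are list medians. The metallothionein probes lie below 0, the dimmer MT1E probe detected in control only included, with medians of -0.42 and -0.47, while the zinc exporters have medians of 0.02 and -0.14 and the metal stress genes 0.19 and 0.30.

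The genes most like the metallothioneins were taken as those whose pair of differences from control lay nearest to the metallothionein median pair, -0.39 and -0.47 over 9 probes detected in all 3 arrays. The search started from 6155 bright probes. Probes with provisional names (LOC, FLJ, KIAA, MGC, DKFZ or open reading frame names) were then left out, so a nearer one may exist among them. Of those kept, the nearest were LANCL1 (-0.39 and -0.48, distance 0.01), TGFBR3 (-0.40 and -0.46), AMZ2 (-0.39 and -0.48), CEP95 (listed as CCDC45, -0.38 and -0.46), PTPRK (-0.41 and -0.46) and HNMT (-0.41 and -0.46). Likeness here rests on 2 numbers from 3 arrays.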

How the data were processed

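The authors deposited non-normalized intensity values of 48803 probes per array, with a detection score beside each, a fraction between 0 and 1 per the file headers; values near 1 go with bright probes. The scanner software is not given in the sources used here. In the authors' deposited normalized table and the series matrix, every value in the miR-483 column equals 0.934 times the raw miR-551a value, so that column was left out. Values were computed here by neqc (limma 3.58.1, R 4.3.3; offset 16, quantile normalization, log2 scale) from 3 arrays together, 1 per group, so no test was possible. Probes with a gene symbol and a detection score above 0.99 in at least 1 array compared were counted; thresholds were 1.5-fold and 2-fold. If a probe was undetected on 1 side, that value was raised to the lowest detected level of that array and the ratio given as "at least". Of 25200 symbols, 15712 were current in RefSeq and 3021 matched by an older symbol. Named genes were all members, other metallothioneins, genes of the pathway and neighbour lists past 1.5-fold (at most 6 a list) and the 6 most alike; SLC39A10, SLC30A6, SLC31A1, GCLM and the epithelial markers given with folds were chosen after their values were seen. Members and lists were chosen with earlier results of these data known. The normalization was tested on simulated arrays made from the control array, with known changes put into probes well above background. That test did not cover the detection filter, the "at least" bounds, the counts or probes near background. Alternatives were other background corrections, scalings, offsets and detection filters.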

Additional observations from a re-analysis of the deposited data

How the results depend on the processing

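The metallothionein median ran from -0.42 to -0.34 for miR-483-5p against control, from -0.51 to -0.37 for miR-551a against control and from 0.18 to 0.23 for miR-483-5p against miR-551a over all alternatives, with no change of sign. Every metallothionein probe counted was lower than control in each of them, the 9 detected in both arrays and, where admitted, the dimmer MT1E probe. The count at least 1.5-fold lower with miR-483-5p, 1 at the main setting, was 0 under median centring and under median scaling, where MT1F was at -0.55 and -0.58; with miR-551a it ran from 2 to 3. Against miR-551a, 2 probes were lower with miR-483-5p in place of 1 at a detection score above 0.95 or without a detection filter, which admit the dimmer MT1E probe. Of 1071 values compared, 48 moved, and 0 differences that were past 1.5-fold changed sign. Single-probe differences could not move under the detection filters, which only change the probes counted. For miR-551a against control, the authors' normalized table repeated median scaling, with the same median over all probes (0.0325). The share of 48 in 1071 is therefore lower than among values that could move. Log2 differences counted as moved if they changed by more than 0.209, a robust SD of the difference between the overexpressing arrays. Counts of probes did so if they changed by more than 1.5-fold or to or from 0. No paired analysis was possible because each group had 1 array, and no array could be left out. Probes near background, such as the dimmer MT1E and MT1H probes and MT4, have sizes that depend on the background correction. Having 1 array per group limits every value.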
